A study of Homo sapiens with 9 samples.

Results

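Histone methyltransferases, demethylases and deacetylases were followed in human embryonic stem cells and in neural progenitor cells derived from them, with and without bafilomycin A1. The group comprised the protein-coding genes whose symbols begin with KDM, KMT, SETD, NSD or HDAC and a number, together with EZH1, EZH2, the SUV39H genes, EHMT1, EHMT2 and SIRT1 to SIRT7. These rules gave 62 of the 46427 genes counted, of which 19672 were protein-coding. They were 26 methyltransferase genes, 18 demethylase genes and 18 deacetylase genes. Left out were 1 Y-linked gene and 11 pseudogenes and noncoding RNAs with matching symbols.

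Each of 3 groups held 3 mRNA libraries made from H9, an established line of human embryonic stem cells. BafA1 NPC were day 11 neural progenitor cells given 10 nM bafilomycin A1, an inhibitor of the vacuolar proton pump that blocks lysosomal acidification and autophagic degradation, in 6 h exposures. The labels list several windows of differentiation days for these exposures and do not say which applied to the sequenced cells. Control NPC were day 11 neural progenitor cells labelled as untreated, with no vehicle stated. Differentiation of both NPC groups towards midbrain dopamine neurons used 200 nM LDN193189 and 10 µM SB431542, which block BMP and TGF-beta signalling. It also used 2 µM purmorphamine, a Hedgehog pathway agonist, and 3 µM CHIR99021, a GSK3 inhibitor. The third group, hESC, was the undifferentiated, untreated line. All results therefore come from 1 cell line, and the labels call the libraries biological replicates without saying whether cultures were grown or harvested separately, so the p-values may measure partly technical spread.

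Histone methyltransferases add methyl groups to lysines of histone tails, and the position decides the reading: methylated H3K4 and H3K36 lie at active genes, whereas methylated H3K9 and H3K27 lie at silent ones. Demethylases remove these groups. Most of them belong to the Jumonji family, which needs oxygen, iron and 2-oxoglutarate, and the KDM1 enzymes use a flavin instead. Deacetylases remove acetyl groups and so generally lower transcription; class I, IIa, IIb and IV enzymes depend on zinc, and the sirtuins depend on NAD. In differentiating stem cells these enzymes help to close pluripotency genes and open lineage genes.

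The names describe families and not substrates. SETD3 methylates actin, SETD6 methylates the NF-kappa-B subunit RELA, SIRT3, SIRT4 and SIRT5 are mitochondrial, HDAC6 deacetylates tubulin in the cytoplasm, HDAC10 acts on polyamines, and KMT2E has little or no methyltransferase activity. No histone mark and no protein was measured. In bulk RNA, fewer cells of a type and less RNA per cell cannot be told apart.

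Total counts were between 43124679 and 69703791 per library, so 1 count was worth 0.0143 to 0.0232 CPM, a read count scaled to a common library size. Marker lists fitted the labels only in part. Summed pluripotency markers reached 812 to 889 CPM in BafA1 NPC, 580.4 to 639 CPM in control NPC and 5701 to 6025 CPM in hESC, with TDGF1 at 0 in BafA1 NPC and POU5F1, TDGF1 and PRDM14 at 0 in control NPC. All 8 of these markers were called lower against hESC in both NPC groups. Their median log2 change was -10.3 in BafA1 NPC and -10.6 in control NPC, so the sums do not describe the typical marker. Neural progenitor markers summed to 910.3 to 1221 CPM in BafA1 NPC, 883 to 1075 CPM in control NPC and 386 to 428 CPM in hESC, where PAX6 and HES5 were at 0. Both NPC groups also carried mesenchyme markers, at 2017 to 2250.2 CPM in BafA1 NPC and 1062 to 1791 CPM in control NPC against 69.7 to 74.4 CPM in hESC. COL1A1 made up most of that sum. Of the 6 mesenchyme markers, COL1A1 and PDGFRA were called higher and LUM and DCN lower in BafA1 NPC against control NPC, with a median log2 change of -0.28, opposite in sign to the sums. Both NPC groups had neuron markers too, at 663 to 705 CPM in BafA1 NPC and 624 to 665 CPM in control NPC against 226 to 243 CPM in hESC. The part that this mix of cells had in the results was not tested. Across genes, expression relative to each gene's mean over the 9 libraries also tracked the GC content of transcripts differently by group. Spearman's rho was -0.0095 to 0.059 in BafA1 NPC libraries, -0.329 to -0.134 in control NPC libraries and 0.094 to 0.177 in hESC libraries.

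The promoters of 4 demethylases are shown because these genes carry the largest rises among the demethylases, and because KDM3A, KDM4B and KDM4C are known targets of hypoxia-inducible factors, which bind the core ACGTG or GCGTG. Each sequence is the 250 bases upstream of the start site that RefSeq gives for the gene on GRCh38.p14, plus strand, 5′ to 3′, with capitals marking ACGTG or GCGTG on either strand. The palindrome CACGTG, an E-box, holds the core ACGTG on both strands. The start used for KDM3A and KDM4C lies inside the span that RefSeq gives to the gene. Gene positions below are from RefSeq on the same build.
KDM3A, chr2:86441121-86441370: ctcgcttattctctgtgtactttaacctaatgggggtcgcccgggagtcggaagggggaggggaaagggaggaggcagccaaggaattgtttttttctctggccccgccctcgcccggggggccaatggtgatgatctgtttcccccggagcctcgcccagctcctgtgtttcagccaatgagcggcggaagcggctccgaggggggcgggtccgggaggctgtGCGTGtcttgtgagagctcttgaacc
KDM4B, chr19:4968863-4969112: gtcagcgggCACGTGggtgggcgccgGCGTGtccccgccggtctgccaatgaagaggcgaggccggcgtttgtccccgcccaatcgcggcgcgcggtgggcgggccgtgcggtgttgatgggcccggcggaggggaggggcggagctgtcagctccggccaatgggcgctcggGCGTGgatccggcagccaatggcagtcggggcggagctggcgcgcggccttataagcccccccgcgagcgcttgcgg
KDM4C, chr9:6757723-6757972: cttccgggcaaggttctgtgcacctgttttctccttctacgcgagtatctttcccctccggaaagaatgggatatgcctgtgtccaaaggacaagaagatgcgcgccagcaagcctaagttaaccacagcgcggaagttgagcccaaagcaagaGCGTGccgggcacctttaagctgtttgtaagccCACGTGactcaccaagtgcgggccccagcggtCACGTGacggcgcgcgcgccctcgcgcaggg
KDM6B, chr17:7833967-7834216: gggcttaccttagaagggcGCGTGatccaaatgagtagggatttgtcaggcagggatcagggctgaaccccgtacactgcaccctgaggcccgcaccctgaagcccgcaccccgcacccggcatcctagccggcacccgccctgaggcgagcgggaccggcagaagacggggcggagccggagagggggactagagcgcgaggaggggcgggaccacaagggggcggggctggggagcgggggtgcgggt

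KDM4C held 2 copies of CACGTG and KDM4B held 1, whereas KDM3A and KDM6B each had a single GCGTG. Of the 57 members with an entry, 39 held ACGTG or GCGTG (68.4%), against 43.1% of all promoters. Among members higher, lower or not called in BafA1 NPC against control NPC, 13 of 18, 10 of 15 and 16 of 24 held it, shares of 72.2%, 66.7% and 66.7%. ACGTG, with GCGTG not counted, was found in 13 of 57 members (22.8%), against 18.7% of all promoters. CACGTG was found in 8 of 57 members (14.04%), against 6.49% of all promoters. By the same calls, 3 of 18 higher, 3 of 15 lower and 2 of 24 uncalled members held CACGTG. It was thus no commoner in higher than in lower members. The part of promoter GC content in these shares was not tested. A match is only a run of letters in this window.

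**Figure D1:**
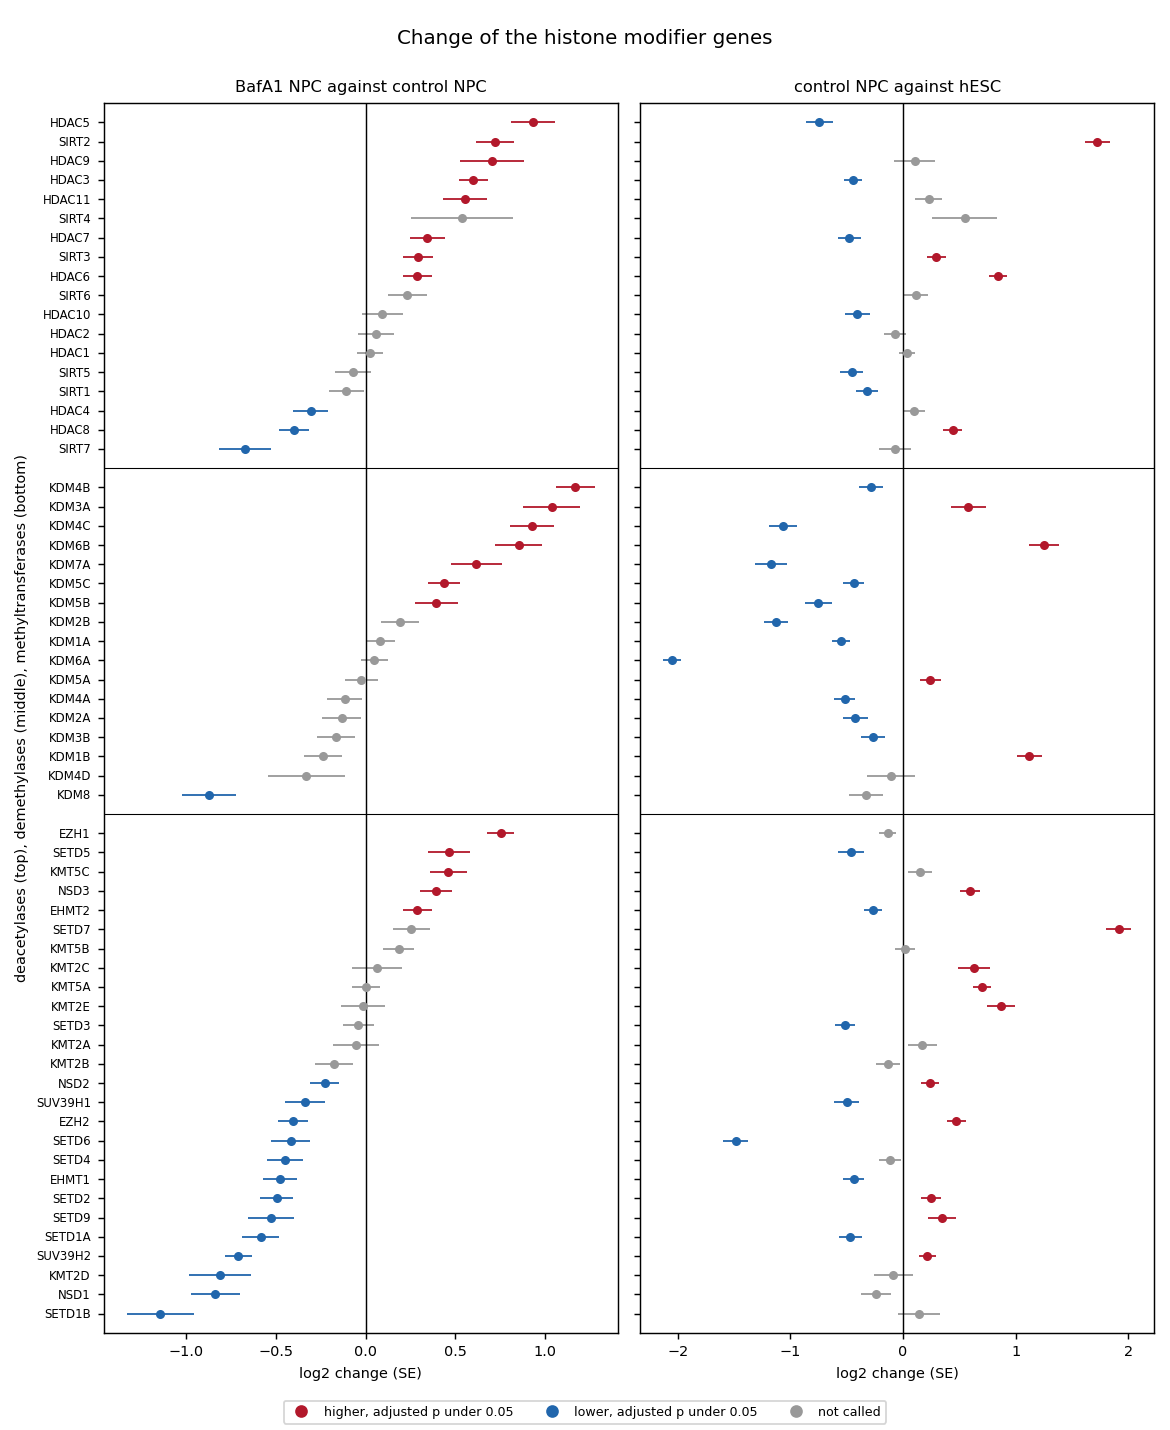
Log2 change of each tested member, with its standard error, in BafA1 NPC against control NPC (left) and control NPC against hESC (right), with red points called higher, blue points called lower and grey points not called. At left 13 of 26 methyltransferases were called lower and 5 higher, and 8 of 18 deacetylases were called higher and 3 lower.

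To ask which chromatin enzymes moved with bafilomycin A1, BafA1 NPC were set against control NPC. Erasers that were called were mostly higher: KDM4B, KDM3A, KDM4C, KDM6B and KDM7A, which take methyl groups off H3K9 or H3K27, were 1.53- to 2.25-fold higher, and HDAC5, SIRT2, HDAC9, HDAC3 and HDAC11 were 1.47- to 1.91-fold higher. Writers that were called were mostly lower, with SETD1B, NSD1, KMT2D, SUV39H2 and SETD1A 1.5002- to 2.21-fold lower. Among called changes of at least 0.5 log2, the erasers KDM8 and SIRT7 were lower instead, and the writer EZH1 was higher. A member is called here when its adjusted p is under 0.05 in edgeR's quasi-likelihood test with Benjamini-Hochberg adjustment over 20685 genes, and this test gives every adjusted p below unless another is named. Values are CPM scaled by the trimmed mean of M values, and log2 changes carry their standard error. Of 61 tested members, 20 were called higher and 17 lower, against a background over all genes of 20.8% higher and 20.7% lower (41.5% in either direction). Among protein-coding genes alone that background was 23.3% higher and 23.4% lower. The members' shares were thus 32.8% higher and 27.9% lower.

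The classes differed in their counts. Of 26 methyltransferases, 5 were higher and 13 lower, with a median log2 change of -0.20. Of 17 tested demethylases, 7 were higher and 1 lower, with a median of 0.082. Of 18 deacetylases, 8 were higher and 3 lower, with a median of 0.26. The median over all tested genes was 0. The counts of families and partner lists below, of 4 to 25 genes each, stand against the same background of 20.8% higher and 20.7% lower. Changes of at least 0.5 log2 were called in 11 members upwards and 8 downwards, against 14.8% and 13.0% of all genes, and changes of at least 1 log2 in 2 and 1, against 6.37% and 4.54%. In 23 members every BafA1 NPC library lay above every control NPC library, and in 18 every one lay below (24.1% and 25.1% of all genes).

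The split between higher and lower calls depended on the scaling, over all genes as well as in these classes. In limma on log2(FPKM + 1), 2482 of 14595 genes were called higher and 5035 lower in BafA1 NPC against control NPC, with a median of -0.105. In that fit 13 members were higher and 20 lower. Methyltransferases became 2 higher and 13 lower with a median of -0.29, demethylases 6 and 4 with a median of -0.051, and deacetylases 5 and 3 with a median of 0.11. With library totals alone, 3104 of 20685 genes were called higher and 5681 lower, the median over all genes shifted to -0.12 and the counts became 4 higher and 13 lower for methyltransferases, 6 and 2 for demethylases and 5 and 3 for deacetylases, and the demethylase median became -0.044. Without BafA1 NPC replicate 1 the demethylases called lower became 2, because KDM3B joined KDM8.

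**Figure D2:**
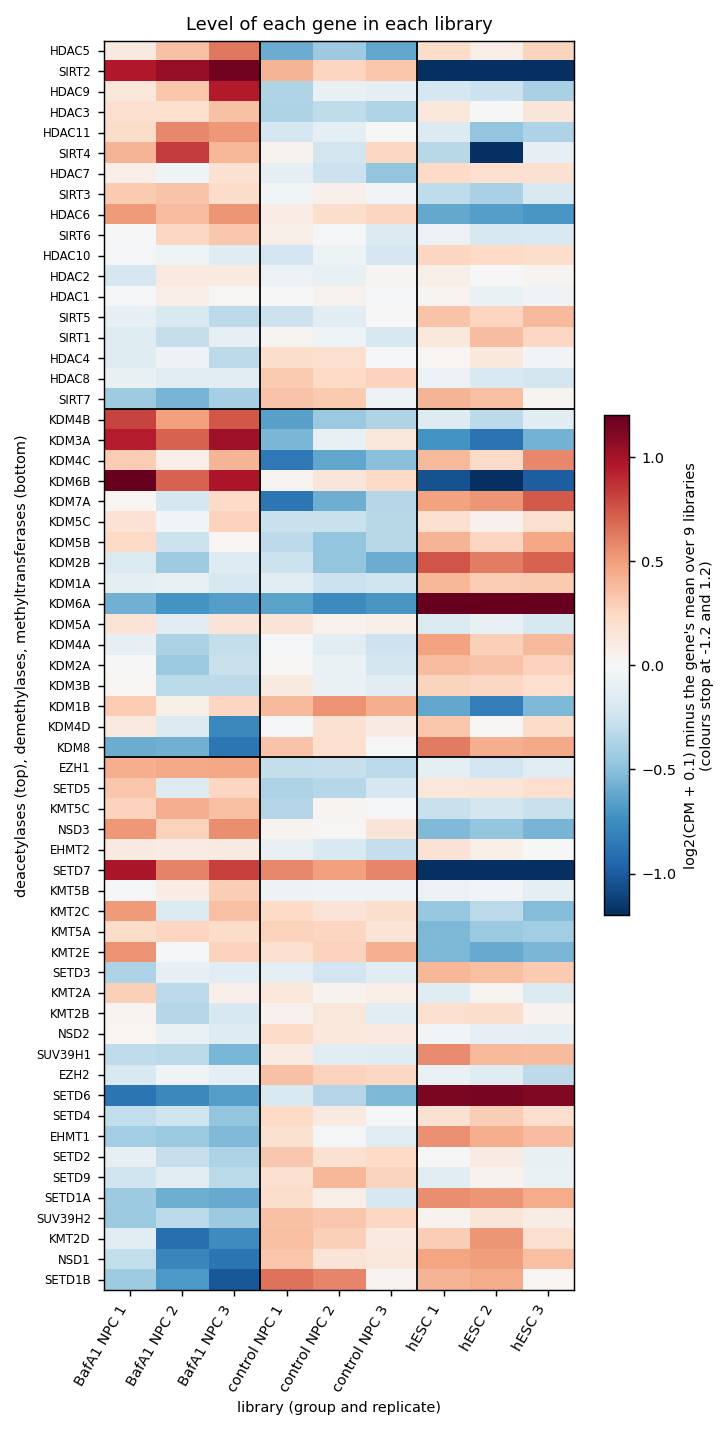
Level of each member in each of 9 libraries, as log2(CPM + 0.1) minus the mean of that member over all libraries, with BafA1 NPC at left, control NPC in the middle and hESC at right, and colours that stop at -1.2 and 1.2. KDM6A and SETD6 are red in hESC alone, and KDM4B and KDM3A are reddest in BafA1 NPC.

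H3K9 demethylases clear a mark of closed chromatin, and 4 of their 7 tested genes rose in BafA1 NPC while none fell. KDM4B, chr19:4969113-5153598, which removes methyl groups from trimethylated H3K9, measured 177, 143 and 169 CPM in BafA1 NPC, 64.2, 74.3 and 78.9 CPM in control NPC and 90.9, 81.6 and 92.8 CPM in hESC. All 3 BafA1 NPC libraries stood above all 6 others. KDM4B rose 2.25-fold against control NPC, a log2 change of 1.17 ± 0.11 (adjusted p = 2.06e-05). KDM3A, chr2:86437044-86492716, which acts on mono- and dimethylated H3K9, measured 373, 317 and 393 CPM in BafA1 NPC, 132, 182 and 213 CPM in control NPC and 118, 105 and 131 CPM in hESC. Its BafA1 NPC libraries lay far above the control NPC libraries, which themselves spread widely with replicate 1 lowest. KDM3A rose 2.05-fold, a log2 change of 1.04 ± 0.16 (adjusted p = 0.000364). KDM4C, chr9:6720863-7175648, a close relative of KDM4B, measured 44.7, 38.2 and 47.9 CPM in BafA1 NPC, 19.9, 23.4 and 25.5 CPM in control NPC and 47.5, 42.5 and 53.9 CPM in hESC. Control NPC were the low group here, and BafA1 NPC overlapped hESC. KDM4C rose 1.901-fold, a log2 change of 0.93 ± 0.12 (adjusted p = 0.000158). KDM7A, which removes dimethyl marks from H3K9 and H3K27, measured 40.004, 34.05 and 46.2 CPM in BafA1 NPC, 21.5, 26.1 and 30.9 CPM in control NPC and 54.99, 56.6 and 65.4 CPM in hESC. BafA1 NPC fell between the other groups without overlapping either. KDM7A rose 1.53-fold, a log2 change of 0.62 ± 0.14 (adjusted p = 0.00466), which was 0.35 in limma on log2(FPKM + 1), and this call was lost in the limma fit of log2(FPKM + 1) over all genes (0.103).

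The remaining H3K9 demethylases were not called. KDM3B had 138 ± 19.8 CPM in BafA1 NPC and 155 ± 13.7 CPM in control NPC (mean ± SD, n = 3 each, as in all such pairs below), and KDM4A had 73.1 ± 7.36 CPM in BafA1 NPC and 79.3 ± 6.15 CPM in control NPC. KDM4D, a retrogene expressed mainly in testis, had 3.49 ± 1.06 CPM in BafA1 NPC and 4.38 ± 0.309 CPM in control NPC. KDM4E was counted in control NPC replicate 2 alone, with 5 counts, and was not tested. Summed over the family, H3K9 demethylase transcripts per length, in the FPKM that the authors scaled library by library, came to 142, 108 and 138 FPKM in BafA1 NPC, 82.6, 93.02 and 95.6 FPKM in control NPC and 97.3, 88.6 and 103 FPKM in hESC. BafA1 NPC exceeded the other groups in every library.

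Hypoxia markers rose as well in BafA1 NPC against control NPC. CA9, VEGFA, SLC2A1 and 7 further markers were called higher in 10 of 10 cases, none was at 0 in any group, and their sum was 6578 to 8449 CPM in BafA1 NPC, 2276 to 2839.5 CPM in control NPC and 3160.0 to 4115 CPM in hESC. In BafA1 NPC against hESC, 10 of 10 markers were called higher too, with KDM3A and KDM4B higher, KDM4C not called and KDM7A lower. In control NPC against hESC, 4 markers were called higher and 3 lower, with KDM3A higher and KDM4B, KDM4C and KDM7A lower. The part of oxygen supply in the change of these demethylases was not tested.

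KDM6B, chr17:7834217-7854796, opens genes silenced by H3K27 trimethylation and is known for its role in neural commitment. It measured 164, 114 and 137 CPM in BafA1 NPC, 71.1, 76.7 and 81.98 CPM in control NPC and 33.7, 28.1 and 34.9 CPM in hESC. The 3 groups formed 3 separate steps, highest in BafA1 NPC. KDM6B rose 1.81-fold against control NPC, a log2 change of 0.85 ± 0.13 (adjusted p = 0.000373). Its X-linked paralog KDM6A had 26.8 ± 1.37 CPM in BafA1 NPC and 25.9 ± 1.06 CPM in control NPC and was not called. After GC and length trends were removed, KDM6A was called higher in BafA1 NPC.

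**Figure D3:**
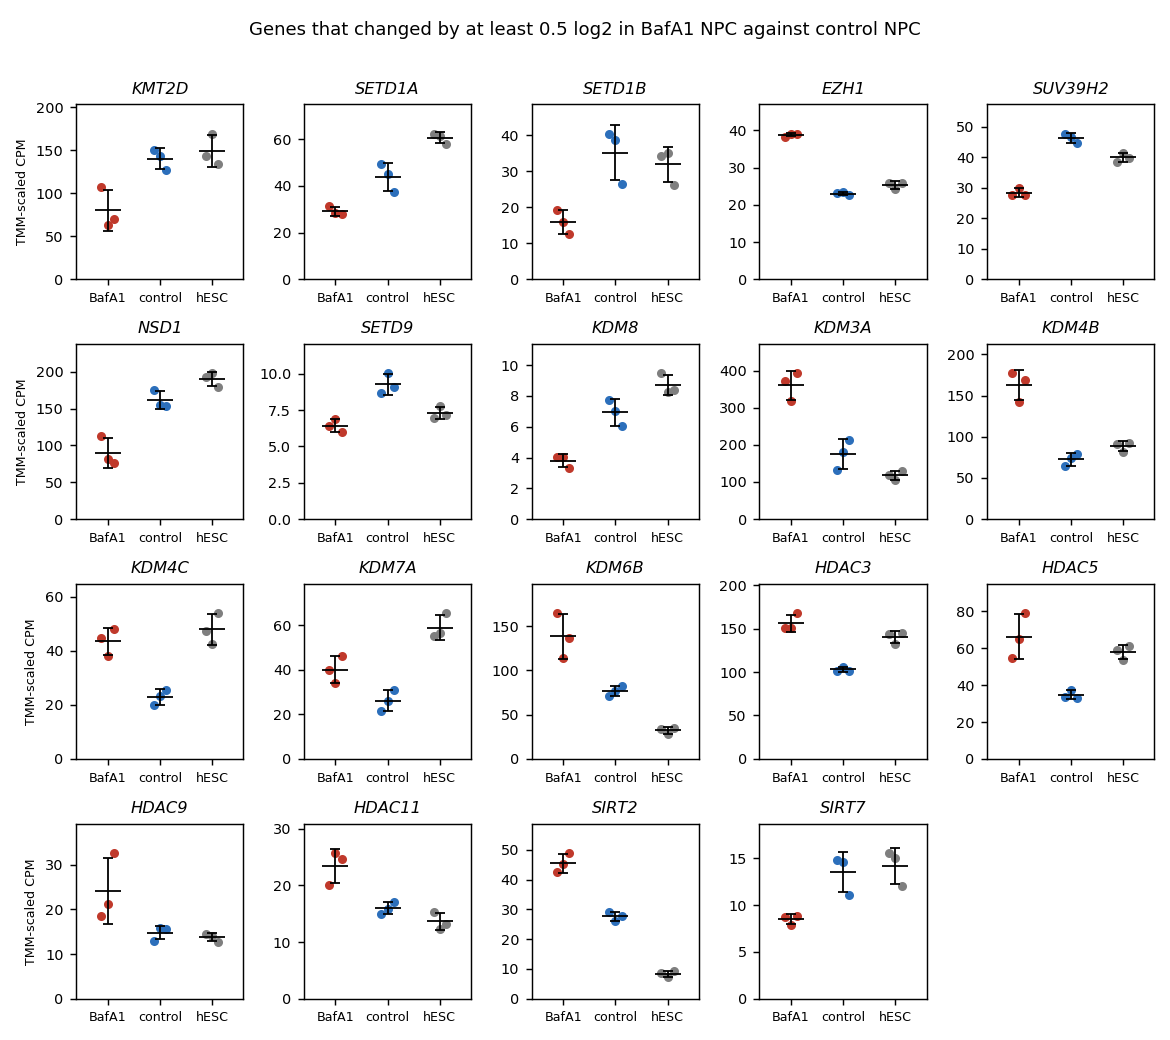
CPM in each library of the members called with a change of at least 0.5 log2 in BafA1 NPC against control NPC, as points with the mean and SD of each group of 3 libraries. In each panel the BafA1 NPC points and the control NPC points do not overlap.

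Among the H3K4 demethylases, KDM5C, an X-linked enzyme of trimethylated H3K4, had 143 ± 15.04 CPM in BafA1 NPC and 106 ± 2.71 CPM in control NPC, a log2 change of 0.44 ± 0.091 (adjusted p = 0.00263). In limma on log2(FPKM + 1) it was 0.26. That call was lost in the limma fit of log2(FPKM + 1) over all genes (0.0986). KDM5B, of the same family, had 248 ± 42.7 CPM in BafA1 NPC and 189 ± 11.2 CPM in control NPC, a log2 change of 0.39 ± 0.12 (adjusted p = 0.0209). The call was lost under scaling by library totals alone (0.124), in 3 limma fits of FPKM (0.1296 to 0.268), without BafA1 NPC replicate 1 (0.0613), without BafA1 NPC replicate 3 (0.0541) and without control NPC replicate 2 (0.0899). KDM1A, the flavin-dependent enzyme also known as LSD1, KDM1B and KDM5A were not called, and KDM1A had 269 ± 10.6 CPM in BafA1 NPC and 254 ± 11.1 CPM in control NPC.

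KDM8, a Jumonji protein whose substrates are debated, was the only demethylase called lower in the main edgeR fit. In other edgeR fits KDM1B joined it under scaling by library totals alone, and KDM3B joined it without BafA1 NPC replicate 1. In limma on log2(FPKM + 1), KDM1B at -0.31 (adjusted p = 0.0243), KDM2A at -0.32 (adjusted p = 0.0386) and KDM3B at -0.31 (adjusted p = 0.0418) were called lower as well, as log2 changes. KDM8 measured 4.01, 4.05 and 3.31 CPM in BafA1 NPC, 7.76, 7.01 and 6.04 CPM in control NPC and 9.46, 8.28 and 8.37 CPM in hESC. Every BafA1 NPC library lay below every other library for KDM8, at a low level throughout. KDM8 fell 1.83-fold against control NPC, a log2 change of -0.88 ± 0.15 (adjusted p = 0.000833). KDM2A and KDM2B, which act on H3K36 but are not the only members that can, were not called. KDM2B had 81.4 ± 8.24 CPM in BafA1 NPC and 71.3 ± 8.54 CPM in control NPC.

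H3K4 methyltransferases keep promoters and enhancers active, and 3 of 7 fell while none rose. SETD1B, chr12:121790155-121832656, a catalytic subunit of the complex that trimethylates H3K4 at promoters, measured 19.2, 15.96 and 12.7 CPM in BafA1 NPC, 40.5, 38.7 and 26.4 CPM in control NPC and 34.3, 35.2 and 26.3 CPM in hESC. The 3 BafA1 NPC libraries lay below all others, and replicate 3 was the lowest library of each group. SETD1B fell 2.21-fold, a log2 change of -1.14 ± 0.19 (adjusted p = 0.000588). SETD1A, its paralog, measured 31.3, 28.2 and 27.9 CPM in BafA1 NPC, 49.2, 44.9 and 37.2 CPM in control NPC and 62.4, 61.4 and 57.9 CPM in hESC. BafA1 NPC were lowest, control NPC next and hESC highest, without overlap. SETD1A fell 1.5002-fold against control NPC, a log2 change of -0.59 ± 0.104 (adjusted p = 0.00101). KMT2D, chr12:49018978-49060794, which places monomethyl H3K4 at enhancers, measured 107, 62.7 and 69.4 CPM in BafA1 NPC, 150.1, 143 and 127 CPM in control NPC and 143, 169 and 134 CPM in hESC. BafA1 NPC replicate 1 was closest to the controls but still below them. KMT2D fell 1.75-fold, a log2 change of -0.81 ± 0.17 (adjusted p = 0.00312).

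The other enhancer enzyme, KMT2C, was not called, at 84.9 ± 19.7 CPM in BafA1 NPC and 81.4 ± 2.25 CPM in control NPC. Neither was KMT2A, the gene rearranged in mixed lineage leukaemia, at 128 ± 26.1 CPM in BafA1 NPC and 133 ± 4.27 CPM in control NPC. KMT2B and SETD7 were not called either, although each SETD7 value in BafA1 NPC lay above each control NPC value. Of 12 COMPASS subunits, 7 were lower and none higher (20.7% and 20.8% of all genes), with a median log2 change of -0.32. These are partners of some or all of KMT2A to KMT2D, SETD1A and SETD1B. PAXIP1, a subunit found with KMT2C and KMT2D, averaged 23.4 ± 1.36 CPM in BafA1 NPC and 35.4 ± 1.34 CPM in control NPC, a log2 change of -0.596 (adjusted p = 0.000226). WDR82, a subunit found with SETD1A and SETD1B, averaged 84.9 ± 10.7 CPM in BafA1 NPC and 124 ± 12.6 CPM in control NPC, a log2 change of -0.55 (adjusted p = 0.00194).

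The catalytic subunits of Polycomb repressive complex 2, which write H3K27 methylation, moved in opposite directions. EZH1, chr17:42700275-42745040, the form typical of resting cells, measured 38.3, 38.9 and 39.2 CPM in BafA1 NPC, 23.1, 23.3 and 22.6 CPM in control NPC and 25.997, 24.1 and 25.9 CPM in hESC. Replicates were nearly identical within groups, and BafA1 NPC stood apart above. EZH1 rose 1.68-fold, a log2 change of 0.75 ± 0.076 (adjusted p = 3.25e-05). EZH2, chr7:148807383-148884291, the form typical of dividing cells, had 91.03 ± 4.25 CPM in BafA1 NPC and 121 ± 4.63 CPM in control NPC, and fell by a log2 change of -0.41 ± 0.083 (adjusted p = 0.00247). Of 10 PRC2 partners, 1 was higher and 3 lower. PHF1, an accessory subunit, averaged 50.5 ± 6.54 CPM in BafA1 NPC and 37.4 ± 1.64 CPM in control NPC, a log2 change of 0.43 (adjusted p = 0.00441). RBBP4, a histone chaperone in the core complex, averaged 278 ± 11.3 CPM in BafA1 NPC and 339 ± 5.18 CPM in control NPC, a log2 change of -0.28 (adjusted p = 0.0118). PHF19, an accessory subunit, averaged 26.2 ± 0.151 CPM in BafA1 NPC and 32.7 ± 4.49 CPM in control NPC, a log2 change of -0.32 (adjusted p = 0.0239).

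H3K9 methyltransferases fell in 3 of 4 cases. SUV39H2, chr10:14878866-14904315, which trimethylates H3K9 in heterochromatin, measured 27.5, 30.004 and 27.8 CPM in BafA1 NPC, 47.8, 46.8 and 44.7 CPM in control NPC and 38.5, 41.6 and 39.9 CPM in hESC. The BafA1 NPC libraries were lowest and the control NPC libraries highest, with no overlap among the groups. SUV39H2 fell 1.63-fold, a log2 change of -0.71 ± 0.077 (adjusted p = 4.82e-05). Its paralog SUV39H1 had 13.4 ± 1.24 CPM in BafA1 NPC and 16.9 ± 1.65 CPM in control NPC, a log2 change of -0.34 ± 0.11 (adjusted p = 0.0303). That call was lost under a fit of only the groups compared (0.0624), without BafA1 NPC replicate 3 (0.113), without control NPC replicate 1 (0.114) and without control NPC replicate 2 (0.0514). EHMT1 and EHMT2 work as a pair that dimethylates H3K9. EHMT1 had 61.8 ± 2.79 CPM in BafA1 NPC and 85.99 ± 9.796 CPM in control NPC, and fell by a log2 change of -0.48 ± 0.095 (adjusted p = 0.00202). EHMT2 had 145 ± 0.763 CPM in BafA1 NPC and 119 ± 7.97 CPM in control NPC, a log2 change of 0.29 ± 0.0804 (adjusted p = 0.0137), and that call was lost under scaling by library totals alone (0.135), in 3 limma fits of FPKM (0.172 to 0.198) and without control NPC replicate 2 (0.05295).

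H3K36 methyltransferases, which mark transcribed gene bodies and intergenic chromatin, also fell in 3 of 4 cases. NSD1, chr5:177131798-177300213, the gene of Sotos syndrome and a dimethylase of H3K36, measured 113, 80.9 and 75.9 CPM in BafA1 NPC, 175, 155 and 153 CPM in control NPC and 193, 198 and 179 CPM in hESC. The BafA1 NPC libraries lay well below the rest, with replicate 1 the highest of the 3. NSD1 fell 1.79-fold, a log2 change of -0.84 ± 0.14 (adjusted p = 0.000539). SETD2, the trimethylase of H3K36, had 72.3 ± 7.23 CPM in BafA1 NPC and 102 ± 5.13 CPM in control NPC, and fell by a log2 change of -0.495 ± 0.091 (adjusted p = 0.00128). NSD2 had 241 ± 14.7 CPM in BafA1 NPC and 282 ± 11.9 CPM in control NPC, a log2 change of -0.23 ± 0.082 (adjusted p = 0.0419), and that call was lost under no filter on low counts (0.0643), under a fit of only the groups compared (0.108), without BafA1 NPC replicate 2 (0.0824), without BafA1 NPC replicate 3 (0.131), without control NPC replicate 1 (0.1202) and without control NPC replicate 2 (0.0913). The NSD2 log2 change was larger with library totals, at -0.35, and in limma on log2(FPKM + 1), at -0.36, and was called in both. NSD3 had 184 ± 18.8 CPM in BafA1 NPC and 141 ± 7.12 CPM in control NPC, a log2 change of 0.39 ± 0.089 (adjusted p = 0.00458), lost in 3 limma fits of FPKM (0.0688 to 0.0709).

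S phase markers fell alongside EZH2, SUV39H1 and SUV39H2 in BafA1 NPC against control NPC. PCNA, MCM2 and 6 further markers were called lower in 8 of 8 cases, none was at 0 in any group, and their sum was 683 to 818 CPM in BafA1 NPC, 1178 to 1494 CPM in control NPC and 1766 to 1912 CPM in hESC. In control NPC against hESC, 2 of the 8 markers were called higher and 4 lower. EZH2 and SUV39H2 were called higher there, though not under every setting, and SUV39H1 was called lower. The part of the share of cycling cells in these changes was not tested.

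Methyltransferases of H4K20 and the remaining SET proteins were mixed. KMT5C, which trimethylates H4K20, had 36.1 ± 1.96 CPM in BafA1 NPC and 26.2 ± 3.61 CPM in control NPC, a log2 change of 0.46 ± 0.103 (adjusted p = 0.004098), a call lost under removal of GC and length trends (0.119). The KMT5C change was 0.27 in limma on log2(FPKM + 1). KMT5A, the monomethylase of H4K20, and KMT5B were not called. SETD9, a protein with no well-established substrate, measured 6.39, 6.898 and 6.01 CPM in BafA1 NPC, 8.64, 10.02 and 9.12 CPM in control NPC and 6.93, 7.79 and 7.16 CPM in hESC. Control NPC were highest and BafA1 NPC lowest. SETD9 fell 1.44-fold, a log2 change of -0.53 ± 0.13 (adjusted p = 0.00609). SETD4 had 18.9 ± 1.62 CPM in BafA1 NPC and 25.8 ± 2.27 CPM in control NPC, and fell by a log2 change of -0.45 ± 0.098 (adjusted p = 0.00354). SETD6 fell by a log2 change of -0.42 ± 0.11 (adjusted p = 0.0103), a call lost in the limma fit of log2(FPKM + 1) over all genes (0.0675). SETD5, a neurodevelopmental disease gene whose own enzyme activity is disputed, had 283 ± 48.7 CPM in BafA1 NPC and 205 ± 12.8 CPM in control NPC, a log2 change of 0.47 ± 0.12 (adjusted p = 0.00788), lost in 3 limma fits of FPKM (0.2402 to 0.399). SETD3 and KMT2E were not called.

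Class I deacetylases are the ubiquitous nuclear enzymes. HDAC3, chr5:141620881-141636849, the catalytic subunit of the NCOR corepressor, measured 150.3, 150.4 and 168 CPM in BafA1 NPC, 101, 106 and 102 CPM in control NPC and 143, 132 and 145 CPM in hESC. Control NPC were the low group, and BafA1 NPC were highest. HDAC3 rose 1.52-fold, a log2 change of 0.6001 ± 0.0797 (adjusted p = 0.000157). HDAC8, a deacetylase of cohesin, had 19.5 ± 0.303 CPM in BafA1 NPC and 25.8 ± 0.644 CPM in control NPC, and fell by a log2 change of -0.399 ± 0.083 (adjusted p = 0.00271). HDAC1 and HDAC2, which share complexes, were not called, with HDAC1 at 119 ± 4.08 CPM in BafA1 NPC and 117 ± 2.69 CPM in control NPC and HDAC2 at 398 ± 47.97 CPM in BafA1 NPC and 382 ± 16.8 CPM in control NPC.

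Class IIa deacetylases shuttle between nucleus and cytoplasm and repress MEF2 targets. HDAC5, chr17:44076753-44123641, measured 54.7, 65.03 and 79.01 CPM in BafA1 NPC, 33.7, 37.5 and 32.999 CPM in control NPC and 59.2, 53.8 and 61.4 CPM in hESC. BafA1 NPC lay above control NPC and overlapped hESC. HDAC5 rose 1.91-fold, a log2 change of 0.93 ± 0.12 (adjusted p = 0.000147). HDAC9 measured 18.5, 21.3 and 32.6 CPM in BafA1 NPC, 13.03, 15.8 and 15.6 CPM in control NPC and 14.6, 14.03 and 12.8 CPM in hESC. BafA1 NPC replicate 3 stood well above the other libraries. HDAC9 rose 1.63-fold, a log2 change of 0.704 ± 0.18 (adjusted p = 0.00861), which became 0.42 without that library. The call was lost in the limma fit of log2(FPKM + 1) over all genes (0.0595). HDAC7 had 84.4 ± 6.98 CPM in BafA1 NPC and 66.5 ± 8.31 CPM in control NPC, a log2 change of 0.34 ± 0.0995 (adjusted p = 0.0161), and that call was lost under scaling by library totals alone (0.0999), in 3 limma fits of FPKM (0.179 to 0.289), without BafA1 NPC replicate 3 (0.0684), without control NPC replicate 2 (0.05102) and without control NPC replicate 3 (0.0534). HDAC4 had 25.5 ± 2.21 CPM in BafA1 NPC and 31.6 ± 2.78 CPM in control NPC, a log2 change of -0.31 ± 0.099 (adjusted p = 0.0261), and that call was lost under a fit of only the groups compared (0.0535), under removal of GC and length trends (0.0562), without BafA1 NPC replicate 3 (0.1005), without control NPC replicate 1 (0.0826) and without control NPC replicate 2 (0.0983).

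HDAC11, the sole class IV member and a defatty-acylase, measured 20.03, 25.7 and 24.7 CPM in BafA1 NPC, 14.96, 15.9 and 17.1 CPM in control NPC and 15.3, 12.4 and 13.3 CPM in hESC. BafA1 NPC were highest without overlap. HDAC11 rose 1.47-fold, a log2 change of 0.55 ± 0.12 (adjusted p = 0.00368), which was 0.36 in limma on log2(FPKM + 1). HDAC6 had 100.2 ± 5.9000 CPM in BafA1 NPC and 82.04 ± 4.64 CPM in control NPC, a log2 change of 0.29 ± 0.079 (adjusted p = 0.0121), and that call was lost under scaling by library totals alone (0.145) and in 3 limma fits of FPKM (0.206 to 0.266). HDAC10 was not called, at 8.33 ± 0.375 CPM in BafA1 NPC and 7.82 ± 0.492 CPM in control NPC.

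Among the 7 sirtuins, 2 were higher and 1 lower. SIRT2, chr19:38878555-38899618, a mainly cytoplasmic tubulin deacetylase abundant in brain, measured 42.6, 45.2 and 48.9 CPM in BafA1 NPC, 29.1, 26.2 and 27.6 CPM in control NPC and 8.497, 7.198 and 9.36 CPM in hESC. The 3 groups were separate, with BafA1 NPC highest and hESC far below. SIRT2 rose 1.65-fold against control NPC, a log2 change of 0.72 ± 0.104 (adjusted p = 0.000262). SIRT7, a nucleolar enzyme that deacetylates H3K18, measured 8.704, 7.897 and 8.87 CPM in BafA1 NPC, 14.9, 14.6 and 11.1 CPM in control NPC and 15.5, 15.02 and 12.01 CPM in hESC. BafA1 NPC were below every other library. SIRT7 fell 1.59-fold, a log2 change of -0.67 ± 0.15 (adjusted p = 0.00335). SIRT3 had 33.4 ± 1.47 CPM in BafA1 NPC and 27.3 ± 1.03 CPM in control NPC, a log2 change of 0.29 ± 0.085 (adjusted p = 0.0167), and that call was lost under scaling by library totals alone (0.183), under removal of GC and length trends (0.0527), in 3 limma fits of FPKM (0.117 to 0.142) and without control NPC replicate 1 (0.05103). SIRT1, SIRT4, SIRT5 and SIRT6 were not called.

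Proteins that work with the deacetylases divided evenly, with 8 of 25 complex partners higher and 8 lower (20.8% and 20.7% of all genes). RCOR2, a CoREST subunit that joins HDAC1 or HDAC2 to KDM1A, averaged 289.5 ± 26.4 CPM in BafA1 NPC and 111 ± 6.93 CPM in control NPC, a log2 change of 1.38 (adjusted p = 6.69e-06). MTA1, a subunit of the NuRD complex, averaged 164 ± 3.84 CPM in BafA1 NPC and 99.5 ± 2.92 CPM in control NPC, a log2 change of 0.72 (adjusted p = 3.43e-05). Its relative MTA2 averaged 65.03 ± 3.95 CPM in BafA1 NPC and 108 ± 14.9 CPM in control NPC, a log2 change of -0.74 (adjusted p = 0.000205). MBD3, another NuRD subunit, averaged 62.4 ± 4.74 CPM in BafA1 NPC and 105 ± 17.2 CPM in control NPC, a log2 change of -0.75 (adjusted p = 0.000463). MTA1 and MTA2, which occupy the same place in NuRD, were thus called in opposite directions.

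Enzymes outside the 62 were counted from 3 lists. Of 19 tested other histone methyltransferases, 3 were higher and 7 lower. SMYD3 averaged 46.05 ± 3.91 CPM in BafA1 NPC and 25.7 ± 3.099 CPM in control NPC, a log2 change of 0.84 (adjusted p = 0.000116), and SETDB1, an H3K9 trimethylase, changed by 0.26 (adjusted p = 0.01702). The arginine methyltransferase PRMT6 averaged 22.3 ± 4.201 CPM in BafA1 NPC and 52.5 ± 5.63 CPM in control NPC, a log2 change of -1.24 (adjusted p = 3.84e-05), and SETMAR changed by -1.11 (adjusted p = 5.90e-05). Of 12 other Jumonji proteins, 2 were higher and 6 lower, led by PHF8 at 0.35 (adjusted p = 0.00471) and JMJD6 at 0.45 (adjusted p = 0.0146) upwards and by RIOX1 at -0.78 (adjusted p = 0.000527) and RIOX2 at -0.704 (adjusted p = 0.002205) downwards, all as log2 changes. Of 13 histone acetyltransferases, which oppose the deacetylases, 3 were higher and 6 lower. KAT2A and KAT8 gave log2 changes of 0.604 (adjusted p = 0.000177) and 0.504 (adjusted p = 0.000825). HAT1, which acetylates new histone H4, averaged 58.7 ± 7.796 CPM in BafA1 NPC and 101 ± 1.13 CPM in control NPC, a log2 change of -0.78 (adjusted p = 8.21e-05), and CLOCK changed by -0.65 (adjusted p = 0.00234).

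Because paralogs can replace each other in a complex, their shares of the summed FPKM of a family were compared. EZH1 made up 24.6, 23.8 and 24.1% of EZH1 plus EZH2 in BafA1 NPC, 13.2, 12.6 and 13.7% in control NPC and 14.7, 16.7 and 21.2% in hESC. KDM6B made up 83.2, 79.1 and 81.4% of KDM6A plus KDM6B in BafA1 NPC, 69.1, 72.5 and 72.7% in control NPC and 21.2, 18.95 and 21.9% in hESC. BafA1 NPC were the highest group for both enzymes, and for KDM6B the far larger step lay between hESC and the NPC groups. KDM3A took 78.9 ± 2.45% of KDM3A plus KDM3B in BafA1 NPC, 61.3 ± 7.85% in control NPC and 47.4 ± 3.14% in hESC (SD, n = 3 each). KDM4B took 53.6 ± 0.896% of KDM4A, KDM4B and KDM4C in BafA1 NPC, 36.7 ± 3.18% in control NPC and 31.5 ± 0.253% in hESC. EHMT1 took 25.7 ± 0.906% of the EHMT pair in BafA1 NPC, 36.9 ± 1.12% in control NPC and 39.6 ± 0.131% in hESC. The HDAC1 share of HDAC1 plus HDAC2 differed between the NPC groups by less than their SDs, at 57.04 ± 2.18% in BafA1 NPC, 57.5 ± 1.92% in control NPC and 55.5 ± 0.249% in hESC.

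SUV39H2 took 66.01 ± 1.85% of the SUV39H pair in BafA1 NPC, 71.5 ± 1.43% in control NPC and 60.4 ± 2.59% in hESC. KDM1B took 4.599 ± 0.49002% of the KDM1 pair in BafA1 NPC, 5.72 ± 0.423% in control NPC and 1.85 ± 0.181% in hESC. HDAC9 took 12.5 ± 2.67% of the class IIa sum in BafA1 NPC, 9.68 ± 1.66% in control NPC and 7.59 ± 0.325% in hESC. Exact two-sided permutation tests of 3 against 3 libraries cannot give a p below 0.1. Of 27 such tests, 23 reached it, for an adjusted p of 0.117, and the exceptions were HDAC9 in BafA1 NPC against control NPC and the 3 tests of HDAC1. No share therefore passes a threshold of 0.05 in this design.

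**Figure D4:**
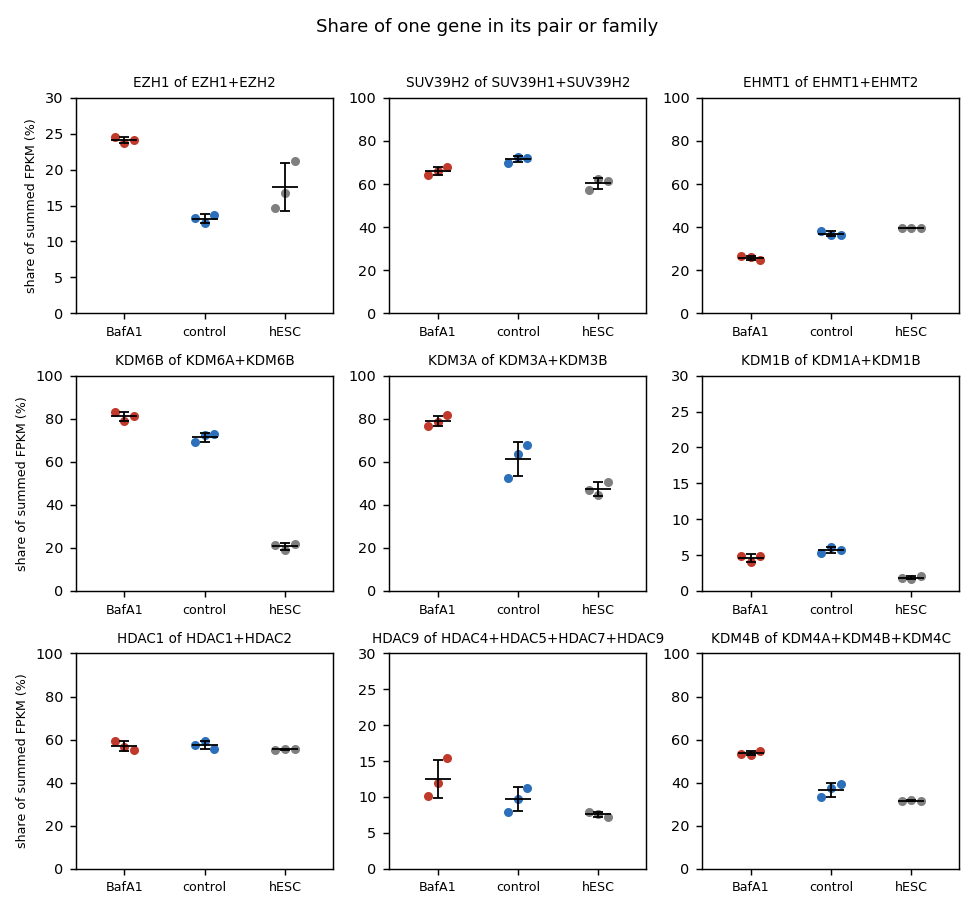
Share of 1 gene in the summed FPKM of its pair or family, in percent, as points for each library with the mean and SD of each group. The EZH1, KDM3A and KDM4B shares are highest in BafA1 NPC, and the KDM6B share is lowest in hESC.

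To ask how the same enzymes stood after differentiation, control NPC were set against hESC, a comparison that shares its control NPC libraries with the one above. The largest change was a 4.15-fold fall of the H3K27 demethylase KDM6A, while its relative KDM6B rose 2.37-fold. SETD7, SIRT2, KDM1B and KMT2E rose, and SETD6, KDM7A, KDM2B and KDM4C fell. Of 61 tested members, 18 were higher and 24 lower, against 33.0% and 31.6% of all genes (64.5% in either direction) and 34.7% and 35.4% of protein-coding genes. Changes of at least 1 log2 were called in 4 members upwards and 5 downwards, against 17.3% and 16.7%. At 0.5 log2 or more, 10 members were higher and 11 lower, against 26.9% and 24.9%. The libraries of control NPC lay wholly above those of hESC for 19 members and wholly below for 27, against 37.0% and 35.8%.

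By class, 10 methyltransferases were higher and 7 lower, 4 demethylases were higher and 11 lower, and 4 deacetylases were higher and 6 lower. Median log2 changes were 0.079 for methyltransferases, -0.42 for demethylases and 0.064 for deacetylases, beside 0.034 over all genes. Scaling by library totals alone gave 20 members higher and 20 lower and a median over all genes of 0.14. Leaving out hESC replicate 3 cut the methyltransferases called higher to 6.

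KDM6A, chrX:44873188-45112779, an X-linked subunit of the KMT2C and KMT2D complexes, measured 28.2, 25.5 and 26.6 CPM in BafA1 NPC, 26.9, 24.8 and 25.98 CPM in control NPC and 108, 106 and 109 CPM in hESC. The hESC libraries stood alone at the top, and both NPC groups overlapped at the bottom. KDM6A fell 4.15-fold in control NPC against hESC, a log2 change of -2.05 ± 0.076 (adjusted p = 6.75e-10). KDM6B, whose values are given above, rose 2.37-fold, a log2 change of 1.25 ± 0.13 (adjusted p = 4.99e-06).

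KDM2B, chr12:121408461-121582279, recruits a Polycomb complex to CpG islands. It measured 85.3, 71.9 and 86.8 CPM in BafA1 NPC, 80.6, 69.6 and 63.7 CPM in control NPC and 163, 148 and 158 CPM in hESC. The hESC libraries lay far above both NPC groups. KDM2B fell 2.19-fold in control NPC, a log2 change of -1.13 ± 0.11 (adjusted p = 1.61e-06). KDM7A fell by a log2 change of -1.17 ± 0.14 (adjusted p = 1.60e-05) and KDM4C by -1.06 ± 0.12 (adjusted p = 1.10e-05), both of which were higher in BafA1 NPC than in control NPC. KDM5B measured 290.4, 205 and 249.7 CPM in BafA1 NPC, 197, 176 and 194 CPM in control NPC and 325, 293 and 338 CPM in hESC. Control NPC were lowest, hESC highest and BafA1 NPC between them. KDM5B fell 1.69-fold, a log2 change of -0.75 ± 0.12 (adjusted p = 0.000158). KDM1A measured 273, 277 and 257 CPM in BafA1 NPC, 267, 246 and 249 CPM in control NPC and 388, 364 and 364 CPM in hESC. Its hESC libraries lay above all NPC libraries. KDM1A fell 1.46-fold, a log2 change of -0.55 ± 0.0802 (adjusted p = 7.54e-05). KDM1B, which is known to reset H3K4 methylation at imprinted genes in mouse oocytes, measured 20.3, 17.3 and 19.6 CPM in BafA1 NPC, 21.5, 23.8 and 22.2 CPM in control NPC and 10.6, 9.19 and 11.3 CPM in hESC. Here hESC were the low group. KDM1B rose 2.17-fold, a log2 change of 1.12 ± 0.11 (adjusted p = 2.53e-06).

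**Figure D5:**
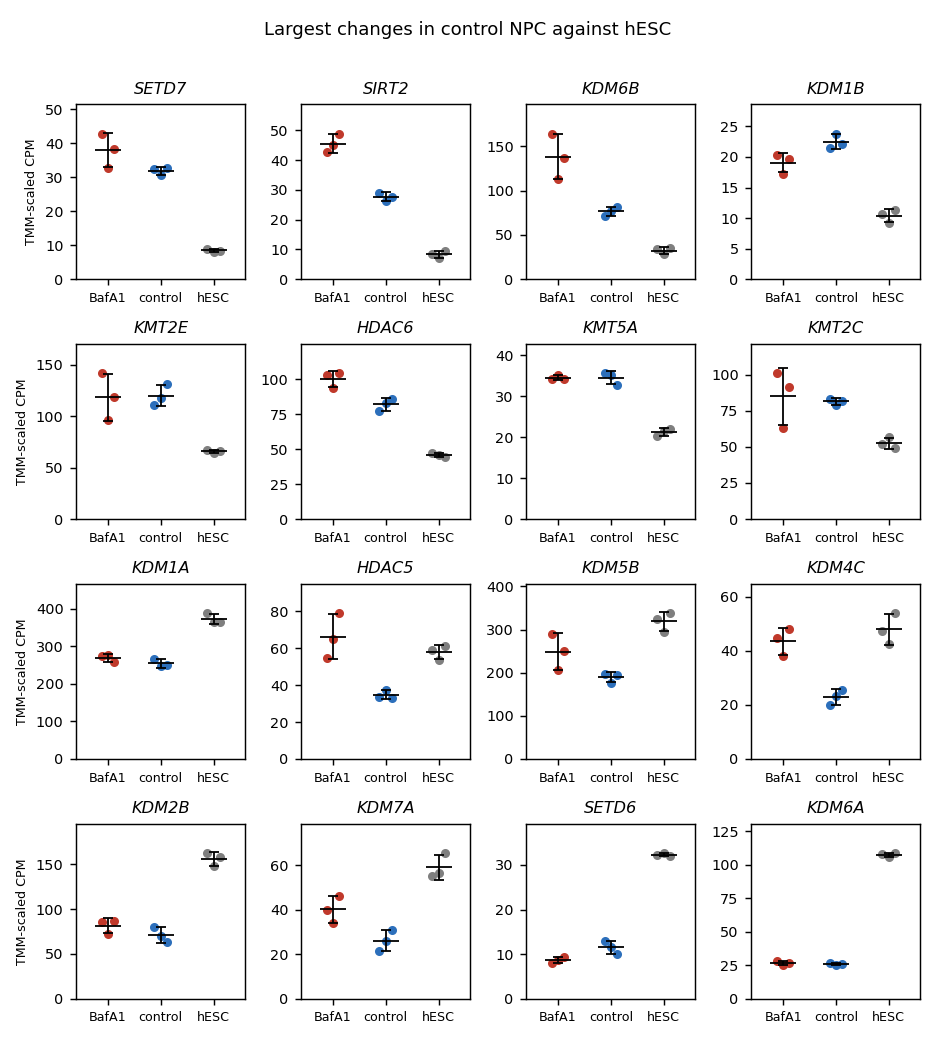
CPM in each library of the 8 members with the largest rises and the 8 with the largest falls in control NPC against hESC, as points with the mean and SD of each group of 3 libraries. KDM6A lies between 24.8 and 28.2 CPM in all NPC libraries and between 106 and 109 CPM in hESC.

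SETD7, chr4:139492974-139556219, a monomethylase of H3K4 and of many other proteins, measured 42.9, 32.8 and 38.4 CPM in BafA1 NPC, 32.4, 30.5 and 32.7 CPM in control NPC and 9.004, 8.03 and 8.32 CPM in hESC. Both NPC groups stood well above hESC. SETD7 rose 3.77-fold in control NPC, a log2 change of 1.91 ± 0.11 (adjusted p = 2.22e-08), which was 1.27 in limma on log2(FPKM + 1). KMT2E measured 142, 96.1 and 118 CPM in BafA1 NPC, 111, 118 and 131 CPM in control NPC and 66.97, 64.2 and 66.7 CPM in hESC. KMT2E rose 1.82-fold, a log2 change of 0.87 ± 0.12 (adjusted p = 6.47e-05). KMT2C measured 101, 62.8 and 91.2 CPM in BafA1 NPC, 83.4, 78.96 and 81.8 CPM in control NPC and 51.7, 56.6 and 49.3 CPM in hESC. Every NPC library lay above every hESC library for both genes. KMT2C rose 1.55-fold, a log2 change of 0.63 ± 0.14 (adjusted p = 0.00187), which was 0.402 after GC and length trends were removed. KMT5A measured 34.1, 35.2 and 34.2 CPM in BafA1 NPC, 35.6, 35.2 and 32.7 CPM in control NPC and 20.2, 21.5 and 21.98 CPM in hESC. KMT5A rose 1.62-fold, a log2 change of 0.69996 ± 0.079 (adjusted p = 8.40e-06). Processed copies of KMT5A exist in the genome, so reads may be divided among them. Reads of KMT2C and HDAC1 may likewise be divided with similar sequences elsewhere in the genome. SETD6, chr16:58515479-58523842, measured 7.98, 8.604 and 9.301 CPM in BafA1 NPC, 12.96, 11.6 and 10.1 CPM in control NPC and 32.3, 32.7 and 32.1 CPM in hESC. hESC libraries agreed closely at the top, with control NPC next and BafA1 NPC lowest. SETD6 fell 2.802-fold in control NPC, a log2 change of -1.49 ± 0.11 (adjusted p = 2.18e-07).

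Of the deacetylases, SIRT2 rose 3.31-fold, a log2 change of 1.72 ± 0.11 (adjusted p = 5.59e-08). HDAC6 measured 103, 93.4 and 104 CPM in BafA1 NPC, 76.9, 83.2 and 85.99 CPM in control NPC and 47.2, 45.5 and 44.4 CPM in hESC. NPC libraries were all above hESC. HDAC6 rose 1.796-fold, a log2 change of 0.84 ± 0.0796 (adjusted p = 1.80e-06). HDAC5 fell 1.67-fold, a log2 change of -0.74 ± 0.12 (adjusted p = 0.000199). HDAC3 and HDAC7 fell by log2 changes of -0.44 ± 0.0796 (adjusted p = 0.000385) and -0.48 ± 0.0995 (adjusted p = 0.00116), SIRT5 by -0.46 ± 0.098 (adjusted p = 0.00142), and HDAC8 rose by 0.44 ± 0.083 (adjusted p = 0.000582). SIRT5 was at -0.305 in limma on log2(FPKM + 1). HDAC1 and HDAC2 were not called.

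Further members called in control NPC against hESC changed less. NSD3 rose by a log2 change of 0.59 ± 0.0896 (adjusted p = 0.000103), KDM3A by 0.58 ± 0.16 (adjusted p = 0.00632) and SIRT3 by 0.29 ± 0.085 (adjusted p = 0.00932). SUV39H1 fell by a log2 change of -0.502 ± 0.11 (adjusted p = 0.00167), EHMT1 by -0.44 ± 0.094 (adjusted p = 0.00142), SETD1A by -0.47 ± 0.103 (adjusted p = 0.00167) and SETD3 by -0.52 ± 0.087 (adjusted p = 0.000242). After GC and length trends were removed, SETD1A was at -0.27 and KDM5C at -0.29, and of the deacetylases HDAC7 was at -0.24. SETD5 fell by -0.46 ± 0.12 (adjusted p = 0.00417), KDM4A by -0.52 ± 0.096 (adjusted p = 0.000489), KDM5C by -0.44 ± 0.0905 (adjusted p = 0.00106) and KDM2A by -0.42 ± 0.11 (adjusted p = 0.00443).

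A further 11 calls depended on a setting or on 1 library. Among the methyltransferases these were EZH2, NSD2, SETD2, SETD9, SUV39H2 and EHMT2. EZH2 had 121 ± 4.63 CPM in control NPC and 86.8 ± 7.17 CPM in hESC, a log2 change of 0.47 ± 0.083 (adjusted p = 0.000334). Its call was lost in the limma fit of log2(FPKM + 1) over all genes (0.0548). NSD2, at 282 ± 11.9 CPM in control NPC and 239 ± 7.55 CPM in hESC, had a log2 change of 0.24 ± 0.082 (adjusted p = 0.0219), a call lost without control NPC replicate 1 (0.0663), without hESC replicate 2 (0.0686) and without hESC replicate 3 (0.08604). For SETD2, with 102 ± 5.13 CPM in control NPC and 85.8 ± 5.59 CPM in hESC, the log2 change of 0.25 ± 0.091 (adjusted p = 0.0314) was not called under removal of GC and length trends (0.498), under DESeq2 (0.0644), without control NPC replicate 1 (0.0914), without control NPC replicate 3 (0.0523), without hESC replicate 1 (0.0882) and without hESC replicate 3 (0.1296). EZH2, NSD2 and SETD2 therefore rose by small amounts that not every setting kept. SETD9 had 9.26 ± 0.699 CPM in control NPC and 7.29 ± 0.443 CPM in hESC, a log2 change of 0.35 ± 0.13 (adjusted p = 0.02995). Its call was lost under removal of GC and length trends (0.1201), without control NPC replicate 2 (0.122), without hESC replicate 1 (0.103) and without hESC replicate 3 (0.0811). SUV39H2, at 46.4 ± 1.59 CPM in control NPC and 39.99 ± 1.55 CPM in hESC, had a log2 change of 0.22 ± 0.076 (adjusted p = 0.0259), a call lost under removal of GC and length trends (0.937), under DESeq2 (0.0512), without control NPC replicate 1 (0.0677), without control NPC replicate 2 (0.0779), without hESC replicate 1 (0.105) and without hESC replicate 3 (0.07501). For EHMT2, with 119 ± 7.97 CPM in control NPC and 143 ± 8.36 CPM in hESC, the log2 change of -0.27 ± 0.0804 (adjusted p = 0.01103) was not called under scaling by library totals alone (0.0963), under removal of GC and length trends (0.408) and without hESC replicate 1 (0.0591). After GC and length trends were removed SUV39H2 stood at -0.0074.

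The erasers among them were KDM5A, KDM3B, KDM4B, HDAC10 and SIRT1, the last a nuclear deacetylase linked to nutrient state. KDM5A had 67.3 ± 2.85 CPM in control NPC and 56.8 ± 2.08 CPM in hESC, a log2 change of 0.24 ± 0.092 (adjusted p = 0.0345). Its call was lost under no filter on low counts (0.0521), under removal of GC and length trends (0.876), under DESeq2 (0.0737), in the limma fit of log2(FPKM + 1) over all genes (0.0675), without control NPC replicate 1 (0.09702), without control NPC replicate 2 (0.0561), without control NPC replicate 3 (0.0514), without hESC replicate 1 (0.101), without hESC replicate 2 (0.0538) and without hESC replicate 3 (0.1101). KDM3B, at 155 ± 13.7 CPM in control NPC and 187 ± 4.41 CPM in hESC, had a log2 change of -0.27 ± 0.11 (adjusted p = 0.0434), a call lost under scaling by library totals alone (0.264), under no filter on low counts (0.0593), in 3 limma fits of FPKM (0.137 to 0.219), without control NPC replicate 2 (0.133), without control NPC replicate 3 (0.134), without hESC replicate 1 (0.108), without hESC replicate 2 (0.0961) and without hESC replicate 3 (0.0731). For KDM4B, with 72.5 ± 7.51 CPM in control NPC and 88.4 ± 6.01 CPM in hESC, the log2 change of -0.29 ± 0.11 (adjusted p = 0.0315) was not called under scaling by library totals alone (0.189), under removal of GC and length trends (0.541), in 3 limma fits of FPKM (0.141 to 0.238), without control NPC replicate 1 (0.124), without control NPC replicate 2 (0.0641), without hESC replicate 1 (0.0905) and without hESC replicate 3 (0.105). KDM5A thus lost its call whichever control NPC or hESC library was left out. HDAC10 had 7.82 ± 0.492 CPM in control NPC and 10.4 ± 0.165 CPM in hESC, a log2 change of -0.41 ± 0.11 (adjusted p = 0.00788). Its call was lost under removal of GC and length trends (0.369). SIRT1, at 33.7 ± 2.61 CPM in control NPC and 42.1 ± 3.604 CPM in hESC, had a log2 change of -0.32 ± 0.095 (adjusted p = 0.0109), a call lost under scaling by library totals alone (0.0736), in 3 limma fits of FPKM (0.0592 to 0.0863) and without hESC replicate 2 (0.0557). After GC and length trends were removed the SIRT1 change was larger, at -0.57, and called, and HDAC10 was at -0.26 in limma on log2(FPKM + 1). The other 19 members were not called: KMT2A, KMT2B, KMT2D, SETD1B, EZH1, NSD1, KMT5B, KMT5C, SETD4, KDM8, KDM4D, HDAC1, HDAC2, HDAC4, HDAC9, HDAC11, SIRT4, SIRT6 and SIRT7.

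Partner lists in the same comparison and the lists of other enzymes stand against 33.0% of all genes higher and 31.6% lower. PRC2 partners were higher in 3 and lower in 3 of 10 cases. EED, the subunit that binds trimethylated H3K27, averaged 38.8 ± 1.08 CPM in control NPC and 24.7 ± 0.0486 CPM in hESC, a log2 change of 0.65 (adjusted p = 1.56e-05). PHF19 changed by 0.82 (adjusted p = 2.14e-05). JARID2, a cofactor that guides PRC2 in pluripotent cells, averaged 73.6 ± 6.24 CPM in control NPC and 379 ± 14.98 CPM in hESC, a log2 change of -2.36 (adjusted p = 2.28e-08), and AEBP2 changed by -0.41 (adjusted p = 0.00143). COMPASS partners were higher in 3 and lower in 5 of 12 cases, with NCOA6 at 2.09 (adjusted p = 2.96e-08), HCFC2 at 2.697 (adjusted p = 7.31e-08), PAXIP1 at -0.64 (adjusted p = 2.93e-05) and DPY30 at -0.602 (adjusted p = 0.000281) as log2 changes. Deacetylase complex partners were higher in 5 and lower in 6 of 25 cases. ARID4A and CHD3 gave log2 changes of 1.41 (adjusted p = 1.66e-07) and 1.16 (adjusted p = 6.64e-07), and MTA1 and MTA3 gave -0.68 (adjusted p = 5.57e-06) and -0.59 (adjusted p = 3.73e-05).

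Other methyltransferases were higher in 5 and lower in 5 of 19 tested. SMYD2 averaged 41.8 ± 3.56 CPM in control NPC and 6.41 ± 0.269 CPM in hESC, a log2 change of 2.71 (adjusted p = 2.23e-09). PRMT8, a membrane-bound arginine methyltransferase of brain, changed by 2.66 (adjusted p = 1.70e-08), SMYD5 by -1.48 (adjusted p = 2.70e-08) and CARM1 by -0.92 (adjusted p = 2.54e-06). Other Jumonji proteins were higher in 1 and lower in 3 of 12, with PHF2 at 1.15 (adjusted p = 3.72e-07), JMJD1C at -1.001 (adjusted p = 8.30e-06) and JMJD8 at -0.47 (adjusted p = 0.00177). Acetyltransferases were higher in 4 and lower in 4 of 13. KAT2B averaged 10.2 ± 0.889 CPM in control NPC and 0.878 ± 0.203 CPM in hESC, a log2 change of 3.52 (adjusted p = 2.26e-08), whereas its paralog KAT2A changed by -0.63 (adjusted p = 2.96e-05). KAT6A changed by 1.28 (adjusted p = 1.63e-06) and KAT7 by -2.101 (adjusted p = 6.03e-10). The paralogs KAT2A and KAT2B were thus called in opposite directions.

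The last comparison, BafA1 NPC against hESC, shares libraries with both others. Of 61 tested members, 19 were higher and 25 lower, against 35.5% and 34.8% of all genes (70.4% in either direction). At 0.5 log2 or more, 17 were higher and 17 lower, against 29.8% and 28.6%, and at 1 log2 or more 6 and 6, against 20.3% and 18.7%. The largest differences were SIRT2 at a log2 change of 2.45 ± 0.11 (adjusted p = 3.03e-09), SETD7 at 2.17 ± 0.11 (adjusted p = 7.39e-09) and KDM6B at 2.101 ± 0.14 (adjusted p = 5.67e-08) upwards, and KDM6A at -2.003 ± 0.076 (adjusted p = 7.63e-10) and SETD6 at -1.91 ± 0.11 (adjusted p = 2.68e-08) downwards. KDM3A stood 3.06-fold above hESC, a log2 change of 1.62 ± 0.16 (adjusted p = 2.28e-06). By class, methyltransferases were 7 higher and 12 lower, demethylases 5 and 9, and deacetylases 7 and 4. None of the 4 class I deacetylases was called. In limma on log2(FPKM + 1), SETD7 was at 1.36, KDM1B at 0.58 against 0.88 ± 0.11 (adjusted p = 1.67e-05) in edgeR, and SIRT4 at 0.67 against 1.09 ± 0.29 (adjusted p = 0.00518) in edgeR.

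The remaining members were not called in BafA1 NPC against hESC, among them several that the comparisons with control NPC had called. EZH2 had 91.03 ± 4.25 CPM in BafA1 NPC and 86.8 ± 7.17 CPM in hESC, a log2 difference of 0.069 ± 0.083 (adjusted p = 0.477). KDM4C had 43.6 ± 4.96 CPM in BafA1 NPC and 47.97 ± 5.74 CPM in hESC, a log2 difference of -0.14 ± 0.12 (adjusted p = 0.329). KDM5C differed by -0.0043 ± 0.0902 (adjusted p = 0.968), SETD5 by 0.0019 ± 0.12 (adjusted p = 0.989) and NSD2 by 0.011 ± 0.081 (adjusted p = 0.908) on the log2 scale. HDAC5 differed by 0.19 ± 0.12 (adjusted p = 0.1799), HDAC8 by 0.0399 ± 0.084 (adjusted p = 0.682), HDAC7 by -0.13 ± 0.099 (adjusted p = 0.247) and EHMT2 by 0.018 ± 0.0803 (adjusted p = 0.848). A p above the threshold does not show equal levels. For EHMT2 the difference was called after GC and length trends were removed, at 0.17 (adjusted p = 0.02002), and for HDAC5 it was called under that setting, at 0.35 (adjusted p = 0.0316), and without BafA1 NPC replicate 1, at 0.31 (adjusted p = 0.02595).

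Calls in BafA1 NPC against hESC held under every setting for 37 of 44 members. KMT2B had 51.7 ± 6.75 CPM in BafA1 NPC and 64.1 ± 4.13 CPM in hESC, a log2 change of -0.31 ± 0.11 (adjusted p = 0.0221). Its call was lost without BafA1 NPC replicate 2 (0.092005), without BafA1 NPC replicate 3 (0.0609), without hESC replicate 1 (0.0665) and without hESC replicate 2 (0.0713). SETD2, at 72.3 ± 7.23 CPM in BafA1 NPC and 85.8 ± 5.59 CPM in hESC, had a log2 change of -0.25 ± 0.091 (adjusted p = 0.0288), a call lost without BafA1 NPC replicate 2 (0.0732), without BafA1 NPC replicate 3 (0.111), without hESC replicate 1 (0.0613) and without hESC replicate 2 (0.114). For KDM5A, with 66.1 ± 7.61 CPM in BafA1 NPC and 56.8 ± 2.08 CPM in hESC, the log2 change of 0.22 ± 0.092 (adjusted p = 0.0494) was not called under scaling by library totals alone (0.0932), under no filter on low counts (0.0801), under a fit of only the groups compared (0.0958), under removal of GC and length trends (0.118), under DESeq2 (0.0906), in 3 limma fits of FPKM (0.3803 to 0.435), without BafA1 NPC replicate 1 (0.171), without BafA1 NPC replicate 3 (0.154), without hESC replicate 1 (0.131), without hESC replicate 2 (0.0716) and without hESC replicate 3 (0.143). KDM5A groups overlapped. KDM5B had 248 ± 42.7 CPM in BafA1 NPC and 319 ± 22.8 CPM in hESC, a log2 change of -0.36 ± 0.12 (adjusted p = 0.0176). Its call was lost without BafA1 NPC replicate 2 (0.0679), without hESC replicate 1 (0.0516) and without hESC replicate 3 (0.0654). HDAC10, at 8.33 ± 0.375 CPM in BafA1 NPC and 10.4 ± 0.165 CPM in hESC, had a log2 change of -0.31 ± 0.11 (adjusted p = 0.0268), a call lost under removal of GC and length trends (0.0741), without BafA1 NPC replicate 3 (0.0707), without hESC replicate 1 (0.0701), without hESC replicate 2 (0.0591) and without hESC replicate 3 (0.0518). For SIRT6, with 20.9 ± 2.37 CPM in BafA1 NPC and 16.4 ± 0.802 CPM in hESC, the log2 change of 0.35 ± 0.11 (adjusted p = 0.0136) was not called in the limma fit of log2(FPKM + 1) over all genes (0.0514), without BafA1 NPC replicate 3 (0.0584), without hESC replicate 2 (0.0514) and without hESC replicate 3 (0.0507). HDAC9 had a log2 change of 0.81 ± 0.18 (adjusted p = 0.00165), which was 0.52 without BafA1 NPC replicate 3, and its call was lost in the limma fit of log2(FPKM + 1) over all genes (0.05197).

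Per transcript length, KDM1A had the highest mean level of the members in each group. It reached 71.1 ± 2.99 FPKM in BafA1 NPC, 73.6 ± 2.304 FPKM in control NPC and 104 ± 3.98 FPKM in hESC (SD, n = 3 each). HDAC3 reached 65.9 ± 6.12 FPKM in BafA1 NPC, 48.1 ± 1.93 FPKM in control NPC and 62.8 ± 3.88 FPKM in hESC. KDM3A reached 62.9 ± 9.38 FPKM in BafA1 NPC, 33.7 ± 7.65 FPKM in control NPC and 21.7 ± 2.63 FPKM in hESC. In BafA1 NPC the levels of KDM1A, HDAC3 and KDM3A differed by less than the largest of their SDs, whereas in hESC KDM3A was far below both.

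Summed by class, methyltransferases came to 279.7, 242 and 269.9 FPKM in BafA1 NPC, 315, 311 and 293 FPKM in control NPC and 306, 298 and 287 FPKM in hESC. Demethylases came to 323, 254 and 304 FPKM in BafA1 NPC, 246, 250.2 and 249 FPKM in control NPC and 329.5, 301 and 331 FPKM in hESC. Deacetylases came to 267, 258 and 292 FPKM in BafA1 NPC, 250.02, 256 and 245 FPKM in control NPC and 255, 238 and 254 FPKM in hESC. BafA1 NPC were the lowest group for methyltransferases and the highest for deacetylases without overlap, and control NPC were the lowest group for demethylases. Median length of annotated transcripts also differed by class, at 4156 bases for methyltransferases, 5251 bases for demethylases and 2192 bases for deacetylases. In BafA1 NPC replicate 2, expression relative to each gene's mean over the 9 libraries fell with transcript length, with a Spearman's rho across genes of -0.193. After GC and length trends were removed, 20 members were higher and 17 lower in BafA1 NPC against control NPC, with methyltransferases at 5 and 14, demethylases at 8 and 1 and deacetylases at 7 and 2, so some calls were lost and others gained. The class medians were then -0.23, 0.165 and 0.17.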

How the data were processed

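The authors sequenced mRNA from H9 hESC and day 11 NPC in 9 libraries, 3 per group, with a stranded TruSeq kit per the labels' protocols. The deposited table holds raw read counts per gene, per the file headers, with totals of 43124679 to 69703791. The authors also deposited FPKM per gene in a table for each group, each library scaled on its own, per the file headers. Trimmomatic and GRCh38 are named in the submitters' processing notes. The sources used here name no aligner, counter or strand setting, so overlapping sense and antisense genes cannot be told apart. Columns headed Control were taken as the untreated NPC, the only group of that kind in the labels.

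Counts were tested with edgeR 4.0.16 in R 4.3.3 (filterByExpr, TMM scaling, group means of all 9 libraries, quasi-likelihood test, Benjamini-Hochberg adjustment over 20685 genes). CPM are TMM-scaled. Alternatives were library totals, no filter on low counts, fits of the groups compared only, DESeq2 1.42.0, limma 3.58.1 on FPKM, removal of GC and length trends (loess, span 0.3), a replicate term and leaving out each library. The limma fits used log2(FPKM + 1) with and without a minimum of 1 FPKM in 3 libraries, and log2(FPKM + 0.1) with that minimum only. Paralog shares were tested by exact permutation (scipy 1.17.1). In total counts, 3 counts equal 0.043 to 0.070 CPM. Such floors cover counting error only.

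Of the deposited gene IDs, 44698 of 46427 matched RefSeq on GRCh38.p14. GC content and length were medians over the annotated GENCODE transcripts of a gene, which need not be the forms expressed here. They were had for 62 of 62 members. Values per library are given for members called in BafA1 NPC against control NPC with at least 0.5 log2 and 1 CPM, and for the 8 largest rises and falls in control NPC against hESC. Of each partner list, up to 2 called genes per direction with the smallest adjusted p are named. The members and lists were chosen with earlier results of these data known. Replicate libraries differed from each other by more than counting noise, so none was a repeat read of another. Each was counted as 1 sample, although this does not show that the cultures were separate.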

Additional observations from a re-analysis of the deposited data

How the results depend on the processing

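Of the called members, 22 of 37 in BafA1 NPC against control NPC, 31 of 42 in control NPC against hESC and 37 of 44 in BafA1 NPC against hESC kept their direction and call under every alternative. In BafA1 NPC against control NPC, 20 members were called higher and 17 lower with edgeR, 13 and 20 with limma on log2(FPKM + 1), 13 and 20 on log2(FPKM + 0.1) and 10 and 16 on log2(FPKM + 1) of all genes. Over all genes the counts were 4309 higher and 4277 lower with edgeR and 2482 and 5035 with limma on log2(FPKM + 1). With library totals alone in edgeR they were 3104 and 5681. The limma fits of FPKM also went without TMM scaling, so calls lost in both are not separate checks. The cause of the shift was not tested. Over all fits that left out 1 library, members were higher in 17 to 21 and lower in 14 to 18 cases in BafA1 NPC against control NPC, higher in 14 to 16 and lower in 21 to 24 in control NPC against hESC, and higher in 17 to 20 and lower in 21 to 26 in BafA1 NPC against hESC. In control NPC against hESC, SUV39H2 turned to -0.0074 when GC and length trends were removed and to -0.0096 when a replicate block was added to that removal. The HDAC1 share in BafA1 NPC against control NPC, a difference of -0.42 percentage points, lay between -1.62 and 0.539 when 1 library was left out, and turned to 0.524 without BafA1 NPC replicate 3 and 0.539 without control NPC replicate 2. Same-numbered libraries showed little shared deviation over all tested genes (correlations of -0.040 to 0.066). With 3 libraries per group this cannot exclude a pairing, and the main fit used none. With the replicate block, 21 members were higher and 17 lower in BafA1 NPC against control NPC, 18 and 25 in control NPC against hESC, and 18 and 26 in BafA1 NPC against hESC. Depth limited KDM4E, with 5 counts in all. BafA1 NPC differ from control NPC in GC trend, in hypoxia and S phase markers and in the summed pluripotency and mesenchyme markers, and the part of these in the counts was not tested.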

Other observations

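Noncoding RNAs that neighbour members were left out of the tests above, and their raw counts, not scaled for depth, are given without a test. KDM7A-DT, divergent from KDM7A, had 307, 186 and 291 counts in BafA1 NPC, 87, 191 and 257 in control NPC and 456, 327 and 437 in hESC. Its control NPC libraries spread widely and overlapped BafA1 NPC. KMT2E-AS1 had 223, 290 and 231 counts in BafA1 NPC, 115, 129 and 167 in control NPC and 239, 236 and 159 in hESC, so every BafA1 NPC library lay above every control NPC library, whereas KMT2E itself was not called. KDM2B-DT had 160, 105 and 133 counts in BafA1 NPC, 74, 81 and 99 in control NPC and 81, 72 and 110 in hESC. The pseudogene KMT5AP3 had 2, 2 and 3 counts in BafA1 NPC, 2, 12 and 0 in control NPC and 44, 36 and 21 in hESC. hESC were highest for it, the opposite order to KMT5A.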
